A study of Sciaenops ocellatus with 36 samples.

Results

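CRTAC1, C1orf50, ADCK4, CRISP3 and FMO5 were 5 of the 56346 rows (56338 distinct symbols) in each of the 6 deposited count tables from embryos and larvae of red drum, Sciaenops ocellatus. They were picked by symbol because they stood out with oil and belong to no well-known oil-response pathway: CRTAC1, C1orf50 and ADCK4 as genes that were higher with oil, CRISP3 and FMO5 as genes that were lower. The oil comparisons chose them, so their values against clean water are given as a description. For these 5 genes p-values are given only for age, for the control series and for slick oil against source oil. Those comparisons share libraries with the oil comparisons and are not independent of the choice. CRTAC1, C1orf50 and ADCK4 were higher than every control of their comparison in 15 of 15 oil libraries, and CRISP3 was lower in 15 of 15. FMO5 was lower in all oil libraries of 1 of the 5 comparisons, slick oil at 24 hours post-fertilization (hpf), and overlapped the controls in the other 4. The share of all genes that separate from their controls in this way was not counted, so these library counts have no background. Source oil and slick oil at 72 hpf were set against the same controls, so their counts are not independent of each other.

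The animals came from brood stock tanks and were kept in clean water or in water prepared with Deepwater Horizon oil. Source oil (labelled Mass, not weathered) was used at 0.27% and slick oil (naturally weathered, collected at sea) at 2.50%. Groups were sampled at 24 hpf as whole embryos and at 48 and 72 hpf as whole larvae, and each library is a pool of 30 animals. The labels describe 36 samples in 12 groups, of which 29 libraries in 10 groups were used: controls of the source series at 24, 48 and 72 hpf, controls of the slick series at 24 and 48 hpf, slick oil at 24, 48 and 72 hpf, and source oil at the first and last of these ages. A group had 3 libraries, but 2 in the case of the 24 hpf controls of the slick series. Separate spawns or tanks for the pools are not stated in the labels, so p-values measure only the spread between these pools.

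The genes carry human symbols, and their roles are known from mammals. CRTAC1 encodes a secreted matrix glycoprotein of cartilage that in mouse brain also binds the Nogo receptor, which holds back axon growth. ADCK4 (COQ8B) is an atypical kinase of mitochondria that is needed to make coenzyme Q, the lipid that passes electrons from dehydrogenases to the respiratory chain. CRISP3 is a secreted protein with a CAP domain, found in human saliva, neutrophil granules and the male reproductive tract, and FMO5 is a flavin-containing monooxygenase of the endoplasmic reticulum, best known from mammalian liver and gut. C1orf50 is an open reading frame whose function is not settled.

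Libraries held 4771973 to 5880716 reads in total where source oil was tested at 24 hpf, and 2532771 to 3280939 reads in the other 5 tables. Of 37 library columns, 1 matched no sample and was not used. For slick oil at 72 hpf the control columns hold the 3 source-series controls of that age, so both 72 hpf comparisons share their controls. Slick oil at 72 hpf is thus set against controls of the other series. Slick oil and series cannot be told apart in that comparison. For slick oil at 24 hpf 1 control column is named as a 48 hpf library and was left out. The 24 hpf source-oil table may assign reads to symbols in another way, which was not tested: the control means of the 2 series correlated at 0.908 (Pearson r of log2 CPM, the counts scaled to library size, across 8810 genes) at 24 hpf against 0.990 at 48 hpf. Levels were therefore not compared between that table and the others. The headers of slick-oil libraries at 48 and 72 hpf end in numbers that source-series control libraries also carry. Those of slick oil at 24 hpf end in numbers that no control used here carries. The headers name no run. Slick-oil libraries may have been sequenced apart from the controls, and slick oil and run could then not be told apart. Slick oil library 1 and source-series control library 1, both at 48 hpf, stood apart from the other libraries of their groups. Some log2 fold changes of the 5 genes are given with and without them. The gene lists, the order of levels, the likeness and the correlations include them. The highest chi-square per gene between replicates of a group was 6.68, within source oil at 24 hpf. With 1 library of that comparison left out, the log2 fold change was 1.98 to 2.20 for CRTAC1 and 2.10 to 2.34 for C1orf50. CYP1A1, the cytochrome P450 switched on by aromatic hydrocarbons, checked the exposure: its log2 fold change with oil was 3.57 to 4.01 over the 5 comparisons. Whole animals were measured, so fewer cells of a type and less RNA per cell cannot be told apart.

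CRTAC1, the secreted matrix protein, was 2.85-fold to 4.28-fold higher with oil over the 5 comparisons. At 24 hpf its level was 112, 129.9 and 109.7 CPM in the source-series controls and 583, 493 and 429.7 CPM with source oil. In the slick series of the same age it was 84.0 and 73.7 CPM in controls and 284, 359 and 238 CPM with slick oil. The lowest oil library lay 3.31 times above the highest control in the first case and 2.83 times in the second. At 48 hpf the slick-series controls had 75.2, 96.6 and 112 CPM and the slick-oil libraries 337, 257 and 231 CPM. At 72 hpf the shared controls had 105, 131 and 148 CPM, source oil 476, 618 and 503 CPM and slick oil 398, 333 and 352 CPM. None of these oil and control groups overlapped. The log2 fold change was 2.10 (SE 0.10) for source oil and 1.92 (SE 0.13) for slick oil at 24 hpf, 1.55 (SE 0.15) for slick oil at 48 hpf, 2.07 (SE 0.12) for source oil and 1.51 (SE 0.10) for slick oil at 72 hpf.

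C1orf50 had low counts, and its oil libraries were nonetheless clear of the controls. At 24 hpf the source-series controls had 8.25, 11.4 and 9.21 CPM (47 to 63 reads) and source oil 49.8, 43.5 and 38.9 CPM. The slick-series controls had 19.6 and 23.2 CPM (53 and 68 reads) and slick oil 52.5, 56.9 and 43.2 CPM. The smallest gap of the 5 comparisons was in the latter, where the lowest oil library was 1.86 times the highest control. At 48 hpf the controls had 15.2, 19.9 and 17.5 CPM and slick oil 51.2, 48.7 and 37.9 CPM. At 72 hpf the controls had 30.3, 37.7 and 39.9 CPM, source oil 93.7, 112 and 75.4 CPM and slick oil 95.3, 77.6 and 84.7 CPM. Both control and oil levels were highest at 72 hpf among the 23 libraries of the other 5 tables. The log2 fold change was 2.20 (SE 0.14) for source oil at 24 hpf and 1.26 (SE 0.16), 1.40 (SE 0.16) and 1.27 (SE 0.12) for slick oil at 24, 48 and 72 hpf. For source oil at 72 hpf it was 1.40 (SE 0.14).

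ADCK4, the mitochondrial kinase, had the smallest log2 fold changes of the 3 at 24 and 48 hpf. The source-series controls at 24 hpf had 34.7, 35.9 and 30.4 CPM and source oil 85.3, 74.1 and 82.5 CPM. The slick-series controls had 44.4 and 45.4 CPM and slick oil 90.4, 98.7 and 71.8 CPM. At 48 hpf the controls had 37.9, 54.6 and 54.0 CPM and slick oil 109, 71.0 and 87.7 CPM, the narrowest gap of the gene, with the lowest oil library 1.30 times the highest control. Slick oil library 1 was the highest of its group there. At 72 hpf the controls had 54.0, 48.2 and 46.7 CPM, source oil 126, 104 and 102 CPM and slick oil 158, 161 and 153 CPM. The slick-oil libraries had an SD of 3.90 CPM (n = 3) and lay above all source-oil libraries. The log2 fold change was 1.26 (SE 0.10) for source oil and 0.97 (SE 0.13) for slick oil at 24 hpf and 0.89 (SE 0.16) for slick oil at 48 hpf. At 72 hpf it was 1.17 (SE 0.12) for source oil and 1.68 (SE 0.10) for slick oil.

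CRISP3 was lower with oil in each comparison. At 24 hpf the source-series controls had 68.5, 84.3 and 93.0 CPM and source oil 44.7, 41.9 and 44.2 CPM. The slick-series controls had 282 and 265 CPM and slick oil 152, 145 and 157 CPM. In both cases the oil libraries were close to each other and below all controls. At 48 hpf the controls had 101, 73.5 and 71.9 CPM and slick oil 38.1, 49.6 and 48.9 CPM. At 72 hpf the controls spread from 63.7 through 74.9 to 114 CPM, while source oil had 25.3, 20.6 and 30.7 CPM and slick oil 45.0, 33.9 and 40.9 CPM. The lowest control stayed above the highest oil library in each of the 5 comparisons, by 1.42 to 2.07 times. The log2 fold change was -0.90 (SE 0.11) for source oil and -0.83 (SE 0.08) for slick oil at 24 hpf, -0.84 (SE 0.14) for slick oil at 48 hpf, and -1.69 (SE 0.18) for source oil and -1.05 (SE 0.15) for slick oil at 72 hpf.

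FMO5 did not share that consistency. In the slick series at 24 hpf the controls had 188 and 190.1 CPM and slick oil 100.5, 74.1 and 126 CPM, a log2 fold change of -0.89 (SE 0.13), with all oil libraries below both controls. With source oil at the same age the controls had 42.6, 42.4 and 47.4 CPM and the oil libraries 31.1, 48.5 and 42.0 CPM, a log2 fold change of -0.13 (SE 0.13). There 1 oil library was above all controls and 2 were below them. At 48 hpf the controls had 52.8, 48.8 and 40.9 CPM and slick oil 41.4, 47.4 and 43.7 CPM (log2 -0.10, SE 0.12), with every oil library inside the range of the controls. At 72 hpf the controls had 64.8, 78.1 and 80.6 CPM, source oil 85.6, 74.5 and 73.2 CPM (log2 0.08, SE 0.11) and slick oil 54.3, 59.9 and 69.0 CPM (log2 -0.27, SE 0.11). Of 15 oil libraries 7 were below all their controls and 2 above them. Beside the lower FMO5 with slick oil at 24 hpf, the summed level of liver markers was 2143 to 2428 CPM in controls and 2048 to 2139 CPM with oil, and 0 of 9 measured passed. These sums did not overlap, and their part in the FMO5 values was not tested. How often sums of other genes separate in this way was not counted. The label of a gene that is lower with oil held for FMO5 in 1 comparison, which has 2 controls. Whether the oil effect on FMO5 differed between ages or oils at 24 hpf was not tested.

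**Figure D1:**
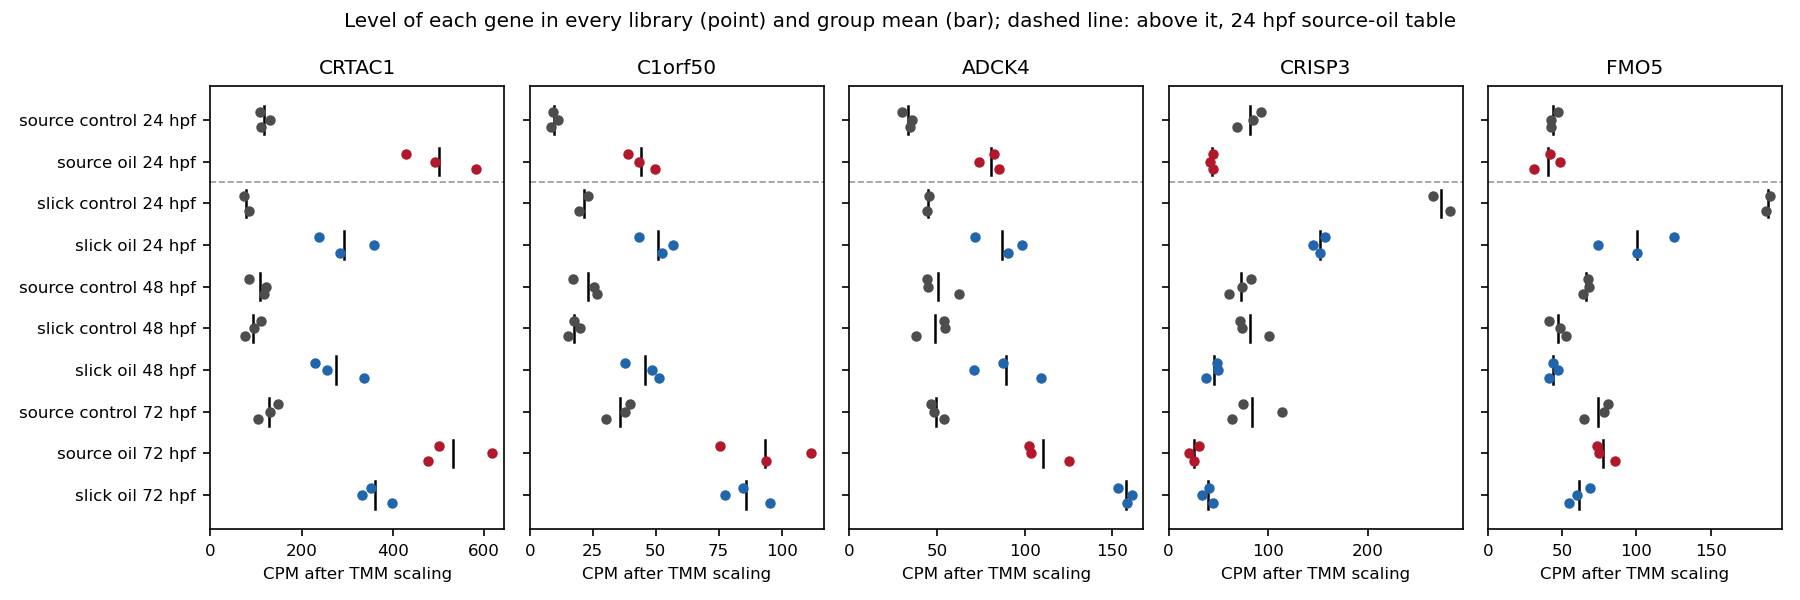
Level of each gene (x axis, CPM after TMM scaling) in every library (points) and as group mean (bars) for the 10 groups, controls in grey, source oil in red and slick oil in blue; the dashed line sets off the 24 hpf source-oil table, whose levels were not compared with the rest. CRTAC1, C1orf50 and ADCK4 lie to the right of their controls and CRISP3 to the left in each comparison, while FMO5 is set apart only at 24 hpf in the slick series.

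**Figure D2:**
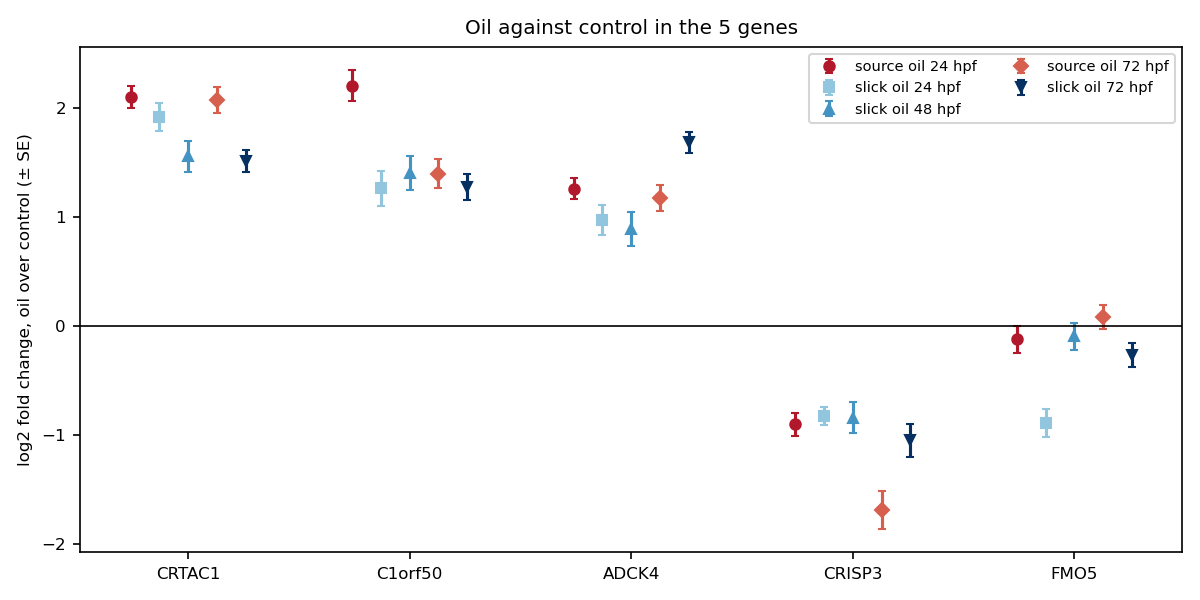
Log2 fold change of oil over control (y axis, estimate ± SE) for the 5 genes in the 5 oil comparisons, with 3 libraries a group except for 2 controls for slick oil at 24 hpf. CRTAC1 ranges from 1.51 to 2.10, C1orf50 from 1.26 to 2.20, ADCK4 from 0.89 to 1.68, CRISP3 from -1.69 to -0.83 and FMO5 from -0.89 to 0.08.

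The background of these counts differed widely between comparisons. The 5 genes passed the filter on low counts in all comparisons. With edgeR at an adjusted p under 0.05, 4 of 5 were past the threshold for source oil at 24 hpf, where 5.42% of all genes tested were, and 5 of 5 for slick oil at 24 hpf, where 2.19% were. The numbers were 4 of 5 for slick oil at 48 hpf (2.68% of all genes), 4 of 5 for source oil at 72 hpf (20.4%) and 4 of 5 for slick oil at 72 hpf (18.6%). Split by direction in the order just given, 3.98%, 1.62%, 1.92%, 11.4% and 8.55% of all genes were called higher, and 1.44%, 0.569%, 0.759%, 9.04% and 10.1% lower. Where 4 passed, the gene that did not was FMO5, and since oil against control chose the genes, nothing is read from these counts. FMO5 also passed for slick oil at 72 hpf without slick oil library 3 (log2 -0.37) or without control library 1 (-0.37). Slick oil at 24 hpf rests on 2 controls, and DESeq2 did not call FMO5 there (-0.90). With the 48 hpf library of that table added as a control, the count was 2 of 5. CRISP3 was then at -0.49, FMO5 at -0.50 and ADCK4 at 1.04, none of them past the threshold, while CRTAC1 (1.92) and C1orf50 (1.41) passed. Without slick oil library 1 at 48 hpf, CRTAC1 was at 1.38, C1orf50 at 1.31, ADCK4 at 0.71, CRISP3 at -0.73 and FMO5 at -0.06.

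The authors' deposited tables, from their own DESeq2 fit, give CRTAC1 1.08 to 1.98, C1orf50 1.03 to 1.66 and ADCK4 0.70 to 1.61 on the log2 scale over these 5 comparisons. Each of these values was lower than the edgeR value of its comparison, and the reason was not tested. For slick oil at 24 hpf, where the 48 hpf library stands among the controls, the authors' deposited table has CRISP3 at -0.34 and FMO5 at -0.29. In the remaining of these 5 comparisons the authors' values are -1.53 to -0.68 for CRISP3 and -0.25 to 0.07 for FMO5. In the authors' deposited table for source oil at 48 hpf, the columns named as oil are the slick-series controls, so it compares controls. The 5 genes range there from -0.40 (FMO5) to 0.15 (CRISP3).

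CRISP3 and FMO5 fell from 24 to 48 hpf in the slick-series controls. Source-series controls were not compared between these ages, since those at 24 hpf stand in the 24 hpf source-oil table. The 2 slick-series controls at 24 hpf also stand in the oil comparison that chose these genes, so a high level in them bears on both. Between 24 and 48 hpf in slick-series controls, CRISP3 went from 282 and 265 CPM to 101, 73.5 and 71.9 CPM, or -1.72 on the log2 scale (SE 0.10, edgeR adjusted p = 2.38e-14). FMO5 went from 188 and 190.1 CPM to 52.8, 48.8 and 40.9 CPM, or -1.98 (SE 0.10, adjusted p = 6.11e-16). Neither gene's groups overlapped. These were 2 of 5 genes, where 47% of all genes tested passed and 23.3% fell, so the share is near the background. The other 3 genes did not pass: CRTAC1 was at 0.27 (95% interval 0.01 to 0.52, adjusted p = 0.0792), C1orf50 at -0.29 (-0.68 to 0.11) and ADCK4 at 0.12 (-0.17 to 0.42). Without slick control library 1 at 48 hpf, CRTAC1 passed at 0.42. The summed level of 11 liver markers, of which 9 were detected, was also lower at the later age: 2143 to 2428 CPM at 24 hpf and 352 to 486 CPM at 48 hpf in these controls. All 9 fell, and their part in the FMO5 result was not tested. Of these markers TF and TTR were at 0 in all libraries of this table set.

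The same 2 genes fell between 24 and 48 hpf under slick oil. CRISP3 went from 152, 145 and 157 CPM to 38.1, 49.6 and 48.9 CPM, or -1.73 on the log2 scale (SE 0.11, edgeR adjusted p = 3.32e-09). FMO5 went from 100.5, 74.1 and 126 CPM to 41.4, 47.4 and 43.7 CPM, or -1.18 (SE 0.15, adjusted p = 1.13e-05). All 48 hpf libraries were below all 24 hpf libraries for both genes, and of all genes 38.2% passed and 18.5% fell. Without slick oil library 1 at 48 hpf the values were -1.62 and -1.14. CRTAC1 (-0.09, 95% interval -0.38 to 0.20), C1orf50 (-0.14, -0.43 to 0.14) and ADCK4 (0.05, -0.25 to 0.34) did not pass. Liver markers summed to 2048 to 2139 CPM at 24 hpf and 431 to 679 CPM at 48 hpf under slick oil, and 8 of 9 fell. At 48 hpf FMO5 was at 44.2 ± 3.06 CPM (SD, n = 3) with slick oil and at 47.5 ± 6.06 CPM (SD, n = 3) in the slick-series controls.

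From 48 to 72 hpf, 4 of the 5 genes rose under slick oil, where 41.2% of all genes passed and 21.6% rose. C1orf50 rose from 51.2, 48.7 and 37.9 CPM to 95.3, 77.6 and 84.7 CPM (log2 0.90, SE 0.12, edgeR adjusted p = 1.38e-05). ADCK4 rose from 109, 71.0 and 87.7 CPM to 158, 161 and 153 CPM (0.81, SE 0.12, adjusted p = 3.02e-05), and FMO5 from 41.4, 47.4 and 43.7 CPM to 54.3, 59.9 and 69.0 CPM (0.46, SE 0.12, adjusted p = 0.00425). In these 3 genes the ages did not overlap. CRTAC1 rose by 0.39 (SE 0.12, adjusted p = 0.0115), with 2 of 3 libraries at 72 hpf above all those at 48 hpf. Its call was lost without slick oil library 2 (0.34) or 3 (0.28) at 48 hpf or library 1 at 72 hpf (0.31). CRISP3 did not pass (-0.19, 95% interval -0.48 to 0.10). Without slick oil library 1 at 48 hpf, CRTAC1 was at 0.56, C1orf50 at 0.98, ADCK4 at 0.98, FMO5 at 0.41 and CRISP3 at -0.31.

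In source-series controls from 48 to 72 hpf, C1orf50 rose, from 26.8, 25.7 and 17.1 CPM to 30.3, 37.7 and 39.9 CPM (log2 0.62, SE 0.17, edgeR adjusted p = 0.00657). This was 1 of 5 genes, where 30.8% of all genes passed and 17.2% rose. The call was lost without control library 3 at 48 hpf (0.45, adjusted p = 0.0504). Without the 48 hpf library that stood apart, C1orf50 was at 0.73. The intervals of the others were -0.04 to 0.51 for CRTAC1, -0.31 to 0.24 for ADCK4, -0.13 to 0.53 for CRISP3 and -0.07 to 0.39 for FMO5. Whether ageing under slick oil differed from ageing in clean water was not tested, since the controls of the slick series at 72 hpf were not used here.

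The controls of the 2 series were compared at 48 hpf to see how far the genes vary without oil. FMO5 was lower in the slick series, with 52.8, 48.8 and 40.9 CPM against 63.8, 67.8 and 67.2 CPM (log2 -0.49, SE 0.11, edgeR adjusted p = 0.0205), and the libraries did not overlap. This was 1 of 5 genes, where 4.45% of all genes passed and 2.41% were lower in the slick series. The call was lost without slick control library 2 (-0.51) or 3 (-0.40) and without source control library 2 (-0.47) or 3 (-0.48), and it held without source control library 1 (-0.50). CRTAC1 was at -0.21 (95% interval -0.50 to 0.07), C1orf50 at -0.42 (-0.81 to -0.04), ADCK4 at -0.07 (-0.38 to 0.25) and CRISP3 at 0.18 (-0.10 to 0.45), and none of the 4 passed. The FMO5 difference between control groups was larger than its difference between oil and control in each comparison other than slick oil at 24 hpf.

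The 2 oils were compared directly at 72 hpf, at the labelled 2.50% for slick oil and 0.27% for source oil. They also stand in separate series, so that oil, dose and series cannot be told apart. Here 4 of 5 genes passed, 2 in each direction, where 17.5% of all genes passed. Of all genes 7.61% were higher and 9.85% lower with slick oil. CRTAC1 was lower with slick oil (log2 -0.55, SE 0.09, edgeR adjusted p = 0.000111), while ADCK4 was higher (0.53, SE 0.10, adjusted p = 0.000217). CRISP3, of the 5 genes the one with the lowest log2 fold change with source oil, was higher with slick oil (0.66, SE 0.16, adjusted p = 0.00278). The groups of these 3 genes did not overlap, and the calls held with each library left out, with DESeq2 and without the filter. FMO5 was lower with slick oil (-0.33, SE 0.11, adjusted p = 0.0421), but this call was lost with DESeq2, without the filter, and without library 1 (-0.25) or 2 (-0.31) of slick oil or library 1 (-0.26) or 2 (-0.37) of source oil. Of 9 liver markers 6 were lower with slick oil too, with sums of 565 to 803 CPM against 920.3 to 1288 CPM, and their part was not tested. Among controls at 48 hpf, FMO5 (log2 -0.49) and 2 of 9 liver markers were also lower in the slick series. In that control comparison 2.41% of all genes were called lower. Between the oils C1orf50 was at -0.11 with a 95% interval of -0.35 to 0.13 and overlapping libraries, which does not show that the oils act alike on it. That the slick-oil libraries may have been sequenced apart applies to this comparison as well.

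**Figure D3:**
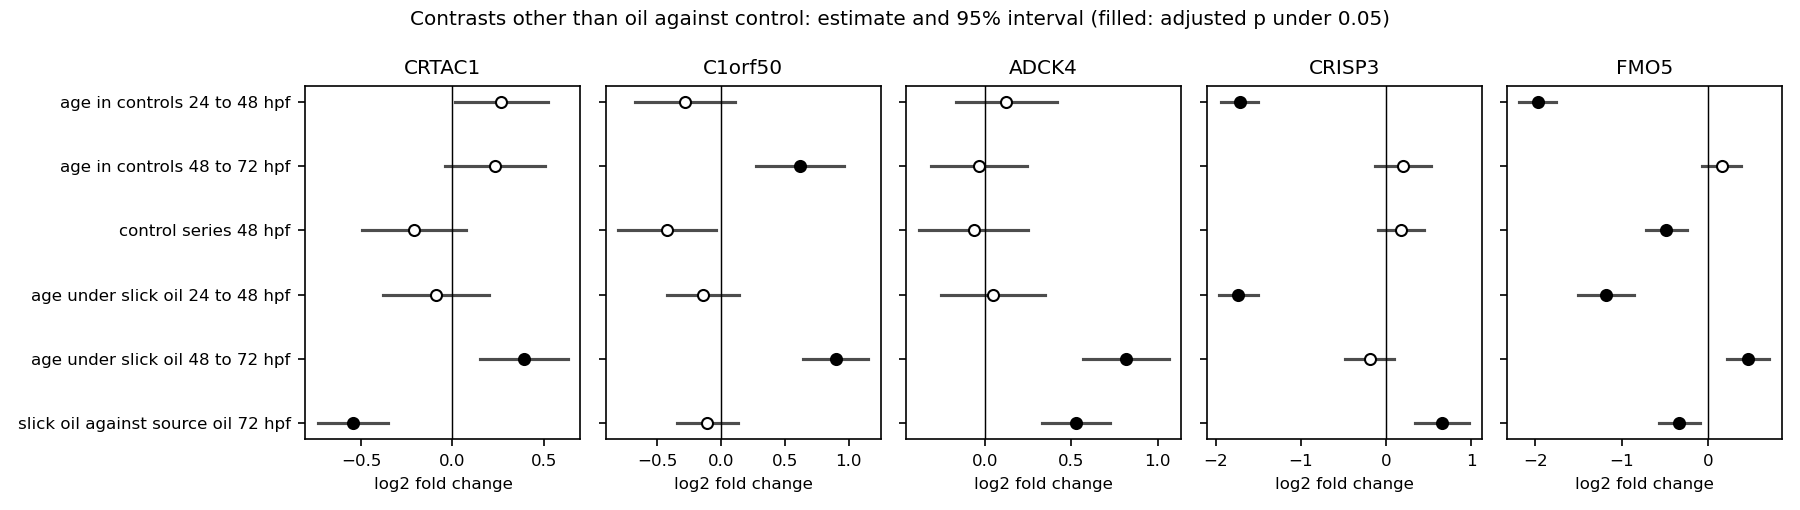
Log2 fold change (x axis, estimate with 95% interval; filled where the edgeR adjusted p is under 0.05) of the 5 genes in the 6 comparisons that do not set oil against control. CRISP3 and FMO5 fall between 24 and 48 hpf in slick-series controls (-1.72 and -1.98, with 2 libraries at 24 hpf) and under slick oil (-1.73 and -1.18). The 2 oils differ at 72 hpf in 4 of the 5 genes.

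The order of the levels was taken over the 8 groups outside the 24 hpf source-oil table. CRTAC1 was highest with source oil at 72 hpf (532 ± 75.3 CPM, SD, n = 3), followed by slick oil at 72, 24 and 48 hpf, whose libraries overlapped between neighbours. The controls came after a gap, from 128 ± 21.2 CPM at 72 hpf down to 78.9 ± 7.27 CPM at 24 hpf (n = 2), each overlapping the next. ADCK4 had slick oil at 72 hpf at the top (158 ± 3.90 CPM), clear of source oil (111 ± 13 CPM), and the controls at the bottom, from 44.9 to 50.6 CPM. In C1orf50 alone of these 3 did a control group overlap with an oil group of another age: controls at 72 hpf (36.0 ± 5.01 CPM) overlapped slick oil at 48 hpf (45.9 ± 7.10 CPM). For CRISP3 the slick-series controls at 24 hpf (273 ± 11.8 CPM, n = 2) and slick oil at 24 hpf (151 ± 5.97 CPM) stood above all older groups. Source oil at 72 hpf was lowest (25.5 ± 5.06 CPM). FMO5 likewise had its highest level in controls at 24 hpf (189 ± 1.76 CPM, n = 2), and from slick oil at 24 hpf to slick oil at 72 hpf each group overlapped the next in the order.

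The libraries of a group also varied together for some of the genes. After the group means were taken off, CRTAC1 and C1orf50 correlated at 0.790 over 23 libraries (Pearson r of log2 CPM). CRTAC1 with ADCK4 gave 0.472, and C1orf50 with ADCK4 0.398. CRISP3 ran against ADCK4 (-0.590), C1orf50 (-0.353) and CRTAC1 (-0.345), and FMO5 against ADCK4 (-0.552), CRTAC1 (-0.491) and C1orf50 (-0.194), while CRISP3 and FMO5 gave 0.337. With CYP1A1 the deviations of CRTAC1 correlated at 0.469, those of C1orf50 at 0.314, ADCK4 at -0.133, CRISP3 at -0.02 and FMO5 at 0.134. The points of a library share its depth and its pool of animals, so these values only describe the libraries.

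**Figure D4:**
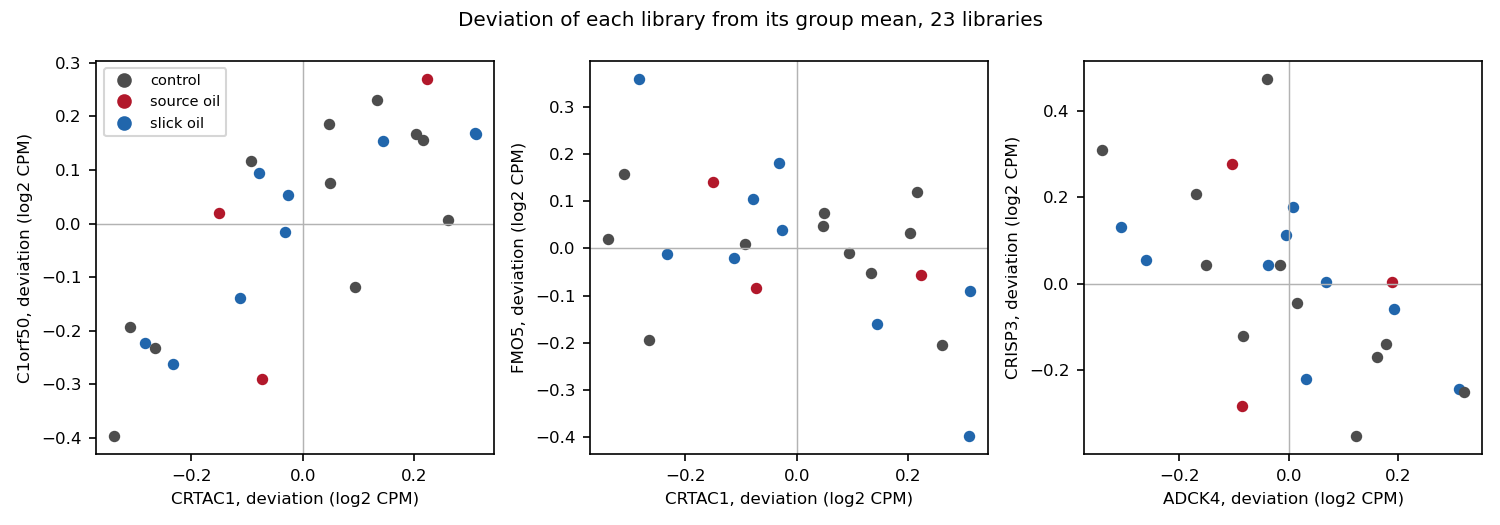
Deviation of each of 23 libraries from the mean of its group in log2 CPM, for CRTAC1 against C1orf50 (left), CRTAC1 against FMO5 (middle) and ADCK4 against CRISP3 (right), with controls in grey, source oil in red and slick oil in blue. The left points run upward (r = 0.790) and the other panels run downward (-0.491 and -0.590).

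Genes whose level over the 23 libraries was most like each of the 5 were taken from 9768 genes, 3 for each. Much of that variation lies between oil and control, which chose the genes, so likeness is a description. CRTAC1 was most like SQRDL, which oxidises sulfide and passes the electrons to coenzyme Q (r = 0.981), then ABHD4, a lipid hydrolase (0.973), and PRDX6, a peroxiredoxin (0.970). C1orf50 was most like TSPO2, a relative of the mitochondrial translocator protein (0.970), PRDX6 (0.966) and GCLC, the catalytic subunit of glutathione synthesis (0.966). ADCK4 was most like HSPA9, the mitochondrial HSP70 chaperone (0.938), its relative ADCK1 (0.937) and FECH, which inserts iron into heme (0.932). CRISP3 was most like NR2E1, a nuclear receptor of neural progenitors (0.930), and the replication genes MCM2 (0.921) and TIMELESS (0.918). FMO5 had no match above 0.864, the value of LTF, and IDH2 (0.859) and SCUBE2 (0.855) followed. By deviations from the group means, 0 of the 3 genes were the same for each of the 5. SDHB, a subunit of succinate dehydrogenase, was then among the first 3 for both CRTAC1 (0.917) and C1orf50 (0.833). The others were NDUFV1 (0.932) and SDHAF2 (0.928) for CRTAC1, and GGCX (0.858) and SLC25A11 (0.819) for C1orf50. For ADCK4 they were HCN2 (0.901), IQSEC3 (0.880) and UNC13C (0.868), whose log2 fold changes with oil ran from -0.41 to 0.57. CRISP3 had BEND3 (0.784), ST13 and GGH, and FMO5 had HADHA (0.882), HS3ST6 and RPL36.

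Genes related to ADCK4 by family and pathway were counted from lists. Of its 4 relatives, ADCK1 rose with source oil at 24 hpf (log2 1.55, SE 0.22) and 72 hpf (0.97, SE 0.24) and with slick oil at 24 hpf (1.10, SE 0.28) and 72 hpf (1.45, SE 0.21), with edgeR adjusted p-values of 7.49e-05, 0.0042, 0.0302 and 4.16e-06. Over all genes tested 3.98%, 11.4%, 1.62% and 8.55% were called higher in the same order. With slick oil at 48 hpf ADCK1 was at 0.62 (SE 0.25) and did not pass. ADCK3 (COQ8A), the closest relative, did not pass in any of the 5 comparisons, with values from -0.08 to 0.16, and neither did ADCK5 (0.03 to 0.56) or ADCK2, which was measured with source oil at 24 hpf only (-0.20). Of 12 genes listed for coenzyme Q synthesis, 10 to 12 were measured. The list holds ADCK3 again, and also COQ10A and COQ10B, which bind coenzyme Q. In it 1 gene rose in 1 comparison, COQ7, a hydroxylase of the pathway (source oil at 24 hpf, 0.71, SE 0.13, adjusted p = 0.00106). Over all genes tested 3.98% were called higher there. COQ7 did not pass elsewhere, with 0.86 and 0.55 for slick oil at 24 and 48 hpf. At 72 hpf it was at 0.52 with source oil and 0.25 with slick oil. None of the list fell. The median of the list was 0.18 for source oil at 24 hpf, 0.22 and 0.05 for slick oil at 24 and 48 hpf, and 0.01 and -0.06 for source and slick oil at 72 hpf, where the median over all genes tested was between -0.01 and 0.01 in each.

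Enzymes that feed electrons into coenzyme Q formed a further list. Of 9 measured, 6 rose with source oil at 24 hpf, 4 with slick oil at 24 hpf, 4 with slick oil at 48 hpf, 5 with source oil at 72 hpf and 5 with slick oil at 72 hpf, and none fell. Over all genes tested 3.98%, 1.62%, 1.92%, 11.4% and 8.55% were called higher in the same order. The median of the list was 0.87, 0.46, 0.39, 1.02 and 0.71 in the same order, against -0.01 to 0.01 over all genes tested. SQRDL (log2 1.34 to 2.17), SDHB (1.07 to 1.71) and SDHA (0.77 to 1.39), both of succinate dehydrogenase, and ETFDH (0.64 to 1.02), which takes electrons from fatty acid oxidation, rose in all 5 comparisons. The membrane subunits SDHC and SDHD did not pass in any of them, and SDHC was at or below -0.01 throughout. GPD2, the mitochondrial glycerol phosphate dehydrogenase, rose at 72 hpf with source oil (1.07) and slick oil (0.95). DHODH of pyrimidine synthesis (0.90) and PRODH of proline breakdown (0.87) rose with source oil at 24 hpf. Of the 5 oil comparisons, DHODH was measured in that one only and GPD2 in the other 4. The 9 measured were therefore not the same genes throughout. Between the oils at 72 hpf, SQRDL (-0.46), SDHB (-0.31), ETFDH (-0.30) and CHDH, the choline dehydrogenase (-0.59), were lower with slick oil, as CRTAC1 was, and PRODH was higher (0.40). Of all genes 9.85% were lower and 7.61% higher there. The lists were drawn up with earlier results of these data known and are not independent evidence of direction.

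**Figure D5:**
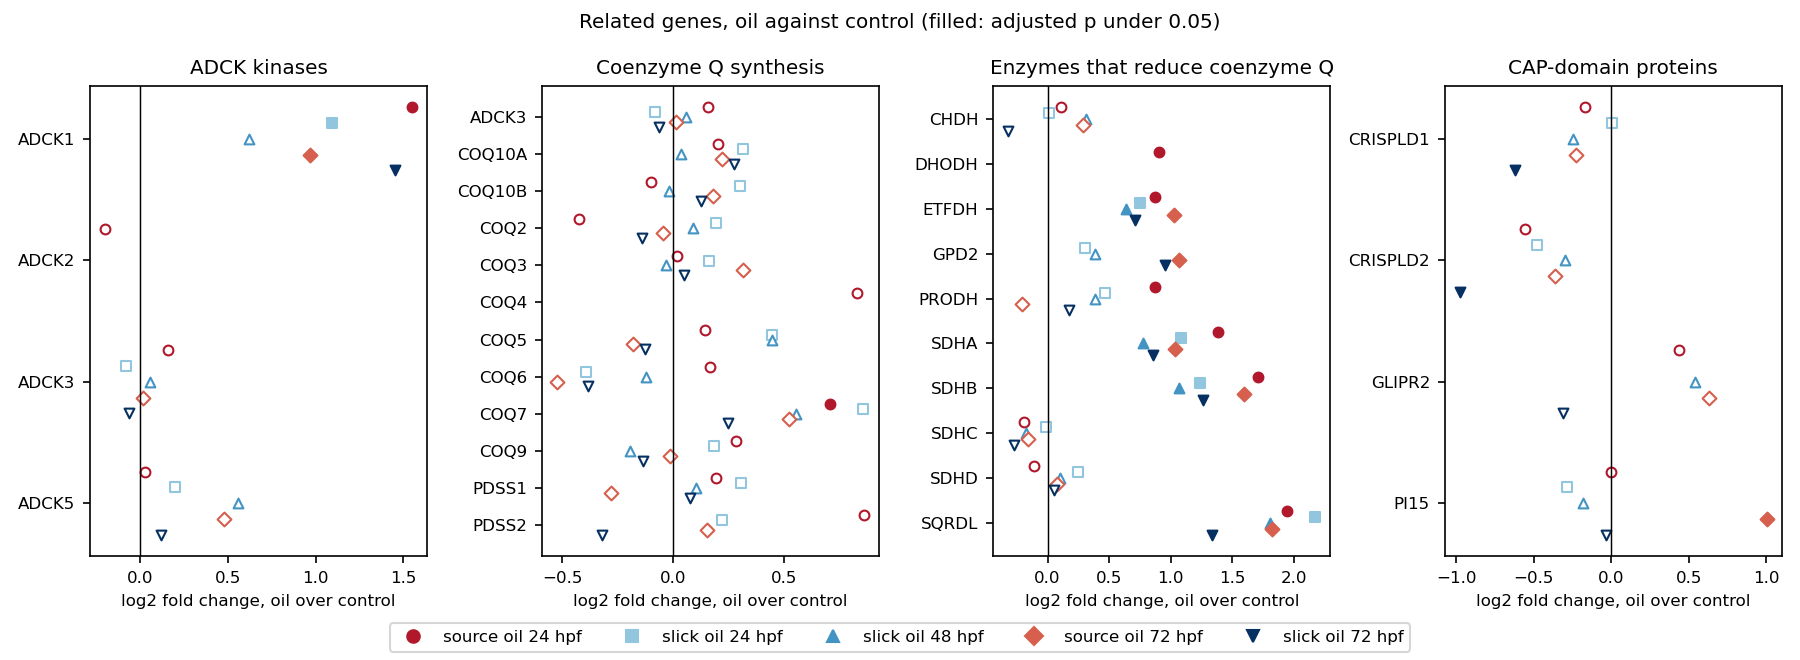
Log2 fold change of oil over control (x axis) for relatives of ADCK4, genes listed for coenzyme Q synthesis, enzymes that reduce coenzyme Q and CAP-domain proteins in the 5 oil comparisons (markers), filled where the edgeR adjusted p is under 0.05. ADCK1, ETFDH, SDHA, SDHB and SQRDL carry filled points in 4 or 5 comparisons, while the genes listed for synthesis carry 1, COQ7 with source oil at 24 hpf.

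Most human symbols of the FMO and CAP families had no reads. FMO1, FMO2 and FMO4 had a count of 0 in all 29 libraries, and so had CRISP1, CRISP2, GLIPR1, PI16 and 5 further genes of the 14 in the CAP list. A count of 0 allows up to 3 reads, or 1.18 CPM in the library of the lowest total. How fish reads were assigned to symbols is not given in the sources used here, so reads of related fish genes may stand under FMO5 or CRISP3. Of the CAP genes 3 or 4 were measured. With slick oil at 72 hpf CRISPLD2 (log2 -0.98, SE 0.15, edgeR adjusted p = 1.33e-05) and CRISPLD1 (-0.62, SE 0.16, adjusted p = 0.00466), secreted proteins with a CAP and an LCCL domain, fell. PI15, a secreted CAP protein, rose with source oil at 72 hpf (1.00, SE 0.21, adjusted p = 0.000727). GLIPR2, the Golgi member of the family, passed in none of the 4 comparisons in which it was measured (-0.31 to 0.63). At 24 and 48 hpf no CAP gene of the list passed, where CRISP3 was at -0.90 to -0.83. Between the oils at 72 hpf PI15 (-1.02), GLIPR2 (-0.92) and CRISPLD2 (-0.60) were lower with slick oil, the opposite of CRISP3. These were 3 of 4 measured, where 9.85% of all genes were lower. GLIPR2 had low counts, at most 27 reads in a library. Against controls at 72 hpf, 10.1% of all genes were called lower with slick oil and 11.4% higher with source oil.

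CRTAC1 was set beside genes of the tissues and receptor it is known from. Of 9 genes of the Nogo receptor complex 5 to 8 were measured, and 1 fell in 1 comparison, LINGO1, a partner of the receptor (source oil at 72 hpf, log2 -0.37, SE 0.13, edgeR adjusted p = 0.0419). Of the integrin-like FG-GAP proteins ITFG1, ITFG2 and ITFG3 none passed with oil. Cartilage markers were counted beside CRTAC1. Of 12 or 13 measured, 4 fell with source oil at 24 hpf, 3 with slick oil at 24 hpf, 0 with slick oil at 48 hpf, 7 under source oil and 5 under slick oil at 72 hpf, while 1 rose with source oil and 2 with slick oil at 72 hpf. Over all genes 1.44%, 0.569%, 0.759%, 9.04% and 10.1% were called lower in the same order. The median log2 fold change of the cartilage markers was -0.29, -0.21, -0.41, -0.39 and -0.22 in that order. It was thus lowest with slick oil at 48 hpf, where 0 passed. The summed level of the cartilage markers did not overlap for slick oil at 24 hpf, with 6980 to 7367 CPM in controls and 5640 to 6172 CPM with oil. It overlapped in the other 4 comparisons: 4642 to 5214 CPM against 3618 to 4909 CPM for source oil at 24 hpf, and 11603 to 14592 CPM against 7960.3 to 11620.0 CPM for slick oil at 48 hpf. At 72 hpf it was 6071 to 7764 CPM in controls, 5224 to 6156 CPM with source oil and 5322 to 7149.6 CPM with slick oil. Of 6 or 7 neuron markers measured, 1 fell with source oil at 24 hpf, 0 and 1 with slick oil at 24 and 48 hpf, and 4 with source oil and 2 with slick oil at 72 hpf, and none rose. The median log2 fold change of the neuron markers was -0.16, -0.02, -0.12, -0.29 and -0.16 in the same order. Their summed level was lower in all oil libraries than in all controls of each comparison. How often sums of other genes separate in this way was not counted. The neuron sum was 525 to 552 CPM against 480.3 to 524 CPM for source oil at 24 hpf, and 572 to 596 CPM against 555 to 567 CPM for slick oil at 24 hpf. It was 814 to 857 CPM against 697 to 779 CPM for slick oil at 48 hpf. At 72 hpf it was 831 to 955 CPM in controls, 703 to 720 CPM with source oil and 738 to 769 CPM with slick oil. The part of these markers in the CRTAC1 values was not tested. Other tissues also moved beside the oil values of the 5 genes. Of 5 or 6 lens markers 5 fell with source oil at 24 hpf, 5 with source oil and 5 with slick oil at 72 hpf, 1 with slick oil at 48 hpf and 0 at 24 hpf. Of 9 or 10 liver markers 5 rose with source oil at 24 hpf, 3 rose and 3 fell with source oil at 72 hpf and 6 fell with slick oil at 72 hpf, and none passed with slick oil at 24 or 48 hpf. Of 3 or 4 skeletal muscle markers 2 fell with slick oil at 72 hpf and none passed in the other 4 comparisons. The shares of all genes called lower are those given with the cartilage markers. Over all genes 3.98% were called higher with source oil at 24 hpf, 11.4% with source oil at 72 hpf and 8.55% with slick oil at 72 hpf. Their part in the values of the 5 genes was not tested. Markers listed for each of the 5 tissues were detected in the whole animals, with 5 of 46 listed genes (ACTA1, BFSP2, MYH1, STMN2 and TTR) at 0 in every library.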

How the data were processed

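RNA of whole red drum was sequenced (TruSeq libraries, HiSeq2500, per the labels). The read counts deposited by the authors are raw, whole-number counts per human gene symbol in 6 tables. The log2 fold changes deposited in the same tables are the authors' DESeq2 results for oil over control, per the file headers, as are the deposited p-values after adjustment. The submitters' processing notes name HTSeq, DESeq2 and hg19, the latter a human genome build. The sources used here give neither the aligner nor the reference for fish reads, so no fish genome position or sequence is given.

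Each comparison was fitted alone on the counts in R 4.3.3 with edgeR 4.0.16, using TMM scaling, filterByExpr (count minimum 10, total 15), quasi-likelihood F test and Benjamini-Hochberg adjustment over all genes tested, and called at an adjusted p under 0.05. Levels are given as CPM (counts scaled to library size by TMM). Likeness used log2 CPM with a prior count of 2. Library columns were matched to samples by header. Of 37 columns 1 matched none, and source oil at 48 hpf and slick controls at 72 hpf were not used here. No library was a copy of another within a group (lowest chi-square per gene between replicates 1.45). DESeq2 1.42.0, RLE scaling, no filter, each library left out and a replicate block were alternatives. The 5 genes, the related-gene lists and the markers were chosen with earlier results of these data known. Named genes are the 5, up to 4 called genes per list and comparison, measured relatives, and the 3 most alike. Further coenzyme Q enzymes (DHODH, PRODH, GPD2, CHDH, SDHC and SDHD) and the list genes given between the oils fall outside this rule and were chosen after their values were seen. Of the listed genes 1 is not reported here. Of 56346 rows, levels were compared within a gene, since lengths are not in the tables.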

Additional observations from a re-analysis of the deposited data

How the results depend on the processing

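The oil comparisons chose the 5 genes, so their calls there under other settings are listed as values and show nothing about stability. With the 48 hpf library added as a control for slick oil at 24 hpf, 2 of 5 genes were called. With 1 library left out, the number called among the 5 was 4 for source oil at 24 hpf, 5 for slick oil at 24 hpf, 4 at 48 hpf, 4 for source oil and 4 to 5 for slick oil at 72 hpf. It was 0 to 1 for controls from 48 to 72 hpf and for the control series at 48 hpf. FMO5 changed sign with source oil, to 0.04 at 24 hpf without oil library 1 and at 72 hpf to -0.021 without control library 1 and -0.0036 without oil library 1.

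Other values near 0 changed sign with 1 library left out. In controls from 48 to 72 hpf ADCK4 ranged from -0.12 to 0.14 and CRISP3 from -0.063 to 0.38. In the control series ADCK4 ranged from -0.16 to 0.12 and CRISP3 from -0.0073 to 0.28. Under slick oil from 24 to 48 hpf CRTAC1 ranged from -0.27 to 0.072 and ADCK4 from -0.13 to 0.19, and between the oils C1orf50 ranged from -0.24 to 0.031. The cause was not tested.

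Counts of all genes called moved by over 1.5 times in several cases. Source oil at 24 hpf had 531, against 350 with DESeq2 and 344 without oil library 2. Slick oil at 24 hpf had 196, against 105 with DESeq2, 63 to 489 with a library left out and 17 with the added control. Slick oil at 48 hpf had 244, or 102 to 941 with a library left out. With DESeq2, source oil and slick oil at 72 hpf had 1186 and 957 in place of 1833 and 1673, and the oils compared directly 934 in place of 1562. The control series had 405, or 96 to 1202 with a library left out. Whether replicate numbers pair the libraries at 24 hpf was not settled. Same-numbered deviations of source oil correlated at 0.136, 0.0157 and 0.123, and the other pairs ranged from -0.212 to 0.0885. In the slick series the 2 controls give mirrored deviations, which cannot decide it. With the replicate block 852 genes were called for source oil and 198 for slick oil, and the count among the 5 was 4 and 5. At 48 and 72 hpf the headers carry no numbers that the labels share. C1orf50 had as few as 47 reads in a control library.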
